A study of Homo sapiens with 15 samples.

Results

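Translation initiation factor genes were taken as every gene of the deposited tables whose symbol starts with EIF, without the symbols that start with EIF4EBP or EIF2AK. Symbols of the excluded kinds belong to proteins that hold back or phosphorylate the factors and are not factors themselves. Of the 12995 genes in the tables, 54 had an EIF symbol, and 48 were left after 2 EIF4EBP and 4 EIF2AK genes were set aside. Among these 48, 47 code for a factor or a close relative of one, and EIF3J-DT is a noncoding transcript that starts next to EIF3J. By role, 6 were placed under start codon selection, 5 under eIF2 and other carriers of the initiator tRNA, 5 under the exchange factor eIF2B and 14 under eIF3. A further 7 were placed under cap binding and scaffolding by eIF4E and eIF4G, 5 under the helicase eIF4A and its cofactors, and 5 under subunit joining, eIF5A and eIF6. Relatives were placed with the factor they are named after, so one such as EIF1AD need not act in that step. EIF1AY is Y-linked, so it entered the counts but no value is given for it.

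RNA was measured in 15 libraries, 3 in each of 5 groups. OKF6, labelled wild type, is a line from normal oral epithelium, and SCC15 and SCC25 are lines from oral cancers. Both cancer lines were pools of cells sorted for mCherry and GFP, the marks of Cas9 and of an inducible guide RNA against YBX1. The +YBX1 groups were not treated, whereas the -YBX1 groups received doxycycline at 1 µg/ml for 3 days, and the labels call them YBX1 knockout. OKF6 and SCC25 grew in serum-free keratinocyte medium and SCC15 in DMEM with foetal bovine serum, so line and medium cannot be told apart for SCC15. OKF6 is not labelled as carrying Cas9 or a guide. In both comparisons with OKF6, line therefore cannot be told apart from Cas9, guide and sorting. No group received doxycycline without an active guide, so the drug and the loss of YBX1 cannot be told apart either. The +YBX1 libraries served in the comparison of lines and also as the controls of the knockouts. The labels do not say whether replicates were separate cultures, and p-values measure only the spread between these samples.

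Each library counted reads at the 3′ ends of transcripts, and values are log2 CPM, the log2 of the reads of a gene after scaling to a common library size. Between 4075290 and 6118501 reads were counted per library, and 3 reads amounted to at most 0.677 CPM. Replicate 1 of OKF6 agreed least with its group, with a mean correlation of 0.845 with the other OKF6 libraries and 12 initiation factor genes more than 1 log2 unit from their mean. OKF6 replicates 2 and 3 also agreed less than the cancer libraries, at 0.876 and 0.896, with 7 and 4 such genes. The lowest mean correlation among the cancer libraries was 0.933. The 8 markers of oral squamous epithelium summed to between 23067 and 30002 CPM in OKF6 and to between 9018 and 18251 CPM in SCC25 +YBX1. In SCC15 +YBX1 they summed to only 90.2 to 121 CPM, and TP63 had 3 reads or fewer in each library. The 4 mesenchymal markers did not move together. CDH2 averaged 5.50 log2 CPM in SCC15 +YBX1 and 3.45 in SCC25 +YBX1, and ZEB1 4.24 and 0.69, while neither had more than 1 read in an OKF6 library. FN1 went the other way, with 4.12 in SCC15, 10.91 in SCC25 and 9.93 in OKF6, and VIM averaged 8.29, 9.67 and 6.57. With FN1 and VIM carrying most of it, their sum was 384 to 416 CPM in SCC15, 2406 to 3133 CPM in SCC25 and 658 to 1657 CPM in OKF6. None of the 4 endothelial and leukocyte markers was among the listed genes. The part of these marker differences in the results on SCC15 was not tested. In bulk RNA, fewer cells of a type and less RNA per cell cannot be told apart.

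Initiation brings the small ribosomal subunit, the initiator tRNA and an mRNA together at a start codon. The complex of eIF4E, eIF4G and eIF4A binds and unwinds the capped end of the mRNA, eIF3 bridges it to the subunit, and eIF2 brings the tRNA and is recharged with GTP by eIF2B. Several of these steps are controlled by mTOR and by stress kinases, and eIF4E and eIF5A2 have long been studied in carcinomas.

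YBX1 was first described as a protein that binds the Y-box, an element holding an inverted CCAAT, so the promoters of the factor genes were searched for CCAAT on both strands and for the E-box CACGTG, which reads the same on both. The search covered 250 bases before and 50 after each RefSeq start (GRCh38.p14), a window available for 39 of the factor genes. CCAAT was present for 19 of them (48.7%), against 43.4% of the 10053 tabled genes with a window. CACGTG was present for 10 (25.6%), against 12.6% of those genes. Of all 35116 windows in the reference, 34.6% held CCAAT and 7.26% CACGTG. The motifs do not overlap each other, and a match is only a match of letters. The 250 bases before the start are shown for EIF4E and EIF5A2, which each held 2 CACGTG and a CCAAT, and for EIF4A1, which held 3 CCAAT and no CACGTG. They run 5′ to 3′ on the coding strand, with both motifs in capitals, and lie at chr4:98929134-98929383 (minus strand), chr3:170908638-170908887 (minus strand) and chr17:7572575-7572824 (plus strand).
EIF4E: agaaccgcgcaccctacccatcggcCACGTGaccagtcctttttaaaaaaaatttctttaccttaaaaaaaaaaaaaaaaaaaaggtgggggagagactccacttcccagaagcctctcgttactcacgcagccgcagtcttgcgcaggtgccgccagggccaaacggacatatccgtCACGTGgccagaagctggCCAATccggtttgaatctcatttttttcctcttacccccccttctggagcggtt
EIF5A2: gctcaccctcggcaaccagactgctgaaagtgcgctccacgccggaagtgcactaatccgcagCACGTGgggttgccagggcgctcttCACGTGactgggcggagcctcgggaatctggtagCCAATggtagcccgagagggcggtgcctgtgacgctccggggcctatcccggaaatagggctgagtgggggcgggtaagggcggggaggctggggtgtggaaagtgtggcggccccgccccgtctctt
EIF4A1: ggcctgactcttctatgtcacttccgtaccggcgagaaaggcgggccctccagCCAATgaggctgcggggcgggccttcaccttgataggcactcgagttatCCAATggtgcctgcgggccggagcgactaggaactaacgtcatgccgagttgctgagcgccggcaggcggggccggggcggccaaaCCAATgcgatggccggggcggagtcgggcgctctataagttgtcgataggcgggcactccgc

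The first question was how the factor genes differ between the normal line and each cancer line, and between the cancer lines. In SCC15, 23 of the 48 genes differed from OKF6 (limma, adjusted p under 0.05), or 47.9%, with 14 of them higher and 9 lower. Across all genes 50.3% passed in this comparison, 26.9% higher and 23.4% lower. Between SCC25 and OKF6 the test passed for 14 factor genes, of which 8 were higher in SCC25. These are 29.2%, against 30.2% of all genes (18.9% higher and 11.3% lower). The cancer lines differed in 14, of which SCC15 was higher in 5 and lower in 9, again 29.2%, against 43.6% of all genes (20% higher and 23.6% lower). At an unadjusted p under 0.05, 26, 21 and 18 factor genes passed, where 56.6%, 41.9% and 50.8% of all genes did. The shares thus lay near the background in both comparisons with OKF6 and below it between the cancer lines.

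The split between higher and lower moved with the scaling of libraries. With library medians set equal, SCC15 was higher than OKF6 in 15 genes and lower in 5, and SCC15 was higher than SCC25 in 7 and lower in 6. With quantiles set equal, SCC15 was higher than SCC25 in 11 genes and lower in 4, and SCC25 was higher than OKF6 in 5 and lower in 8. The median change of all genes moved by more than 0.1 log2 units with these scalings, from 0.10 to 0.26 for SCC15 against OKF6 with equal medians, from 0.13 to -0.05 for SCC25 against OKF6 with equal quantiles, and from -0.01 to 0.14 and 0.17 between the cancer lines. The median over the factor genes was 0.10 in SCC15 against OKF6, 0.19 in SCC25 against OKF6 and -0.05 in SCC15 against SCC25, beside 0.10, 0.13 and -0.01 over all genes. Replicates did not overlap for 22, 21 and 25 factor genes in these comparisons, where 54.4%, 43.3% and 66.6% of all genes did not.

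**Figure D1:**
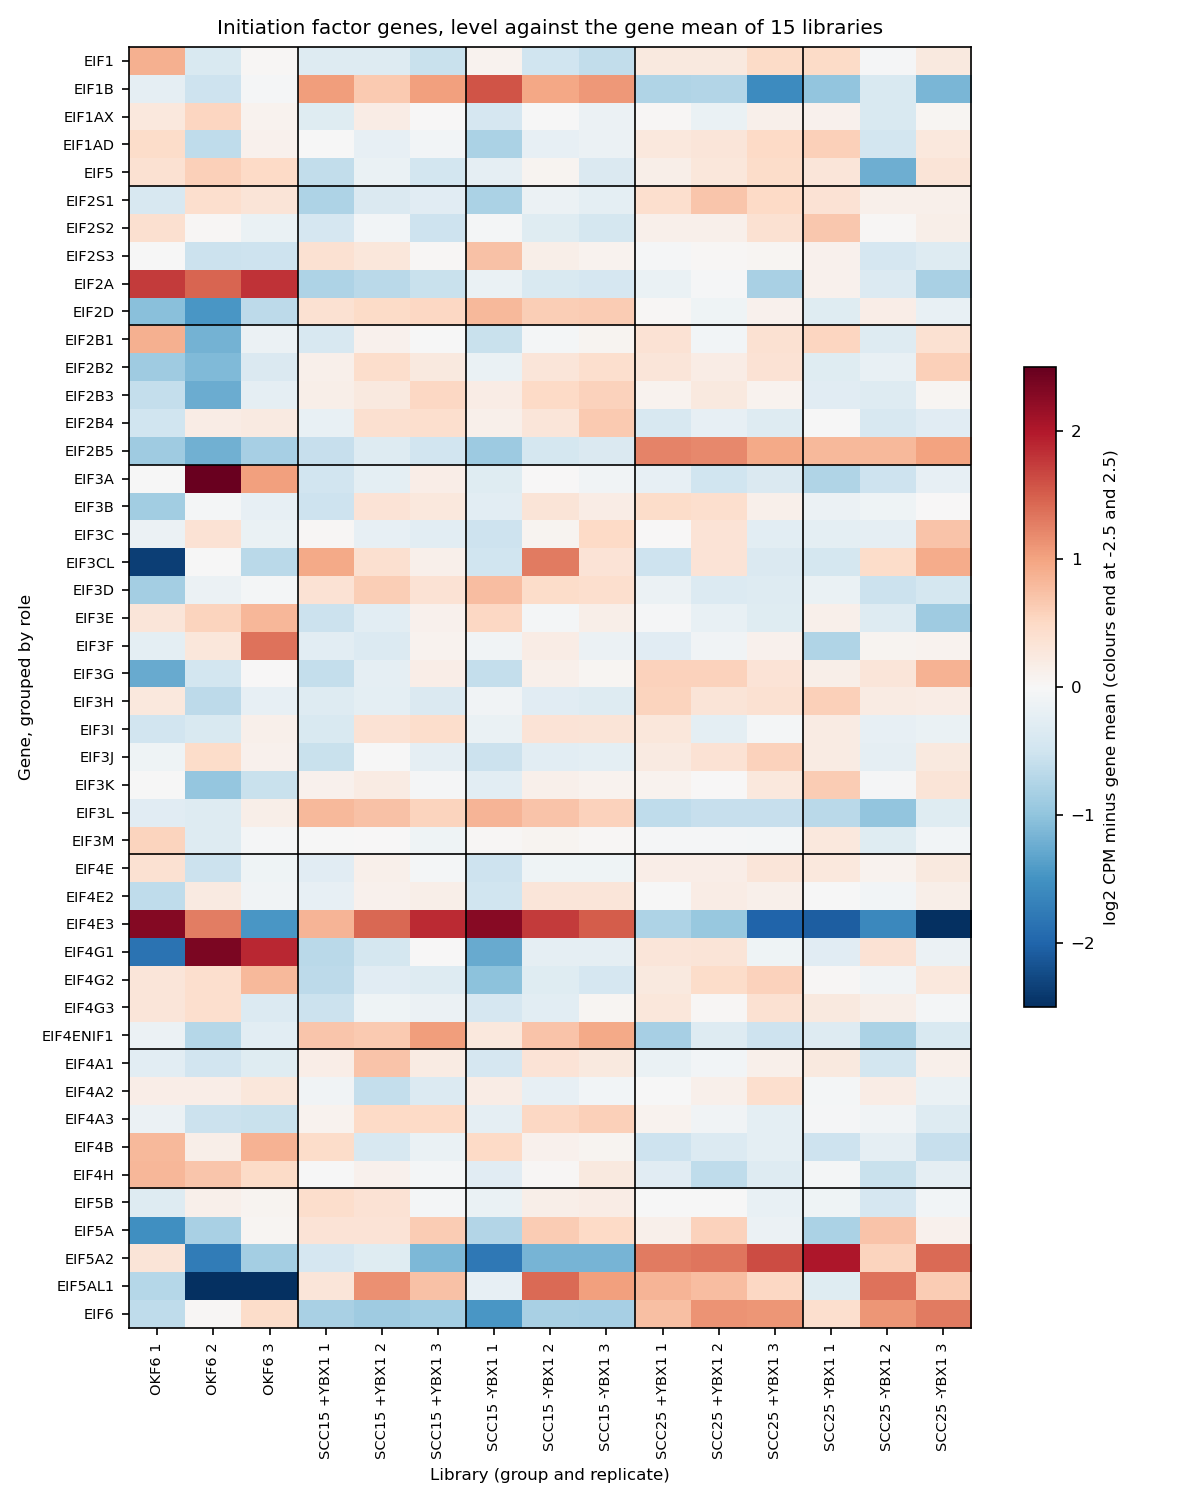
Level of 46 factor genes (rows, grouped by role) in the 15 libraries (columns), as log2 CPM minus the mean of the gene over all libraries, with red above and blue below that mean. EIF2A is reddest in OKF6, EIF2B5, EIF5A2 and EIF6 are red in the SCC25 libraries, and EIF4G1 is blue in OKF6 replicate 1 but red in the other two OKF6 libraries.

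Of the 6 start codon selection genes, 3 passed the test in SCC15 against OKF6, 1 in SCC25 against OKF6 and 2 between the cancer lines. In these comparisons 50.3%, 30.2% and 43.6% of all genes passed, and the role groups are small beside such shares. EIF1B encodes a close relative of EIF1, the factor that keeps the scanning subunit open until a start codon is reached. EIF1B stood at 32.7, 26.7 and 37.5 CPM in OKF6, at 78.8, 60.3 and 78.2 CPM in SCC15 and at 22.8, 23.1 and 12.8 CPM in SCC25. Every SCC15 library was above those of the other lines, and SCC15 exceeded SCC25 by 1.93 log2 units (SE 0.28, adjusted p = 0.000224) and OKF6 by 1.17 (SE 0.28, adjusted p = 0.0048). EIF1 itself did not pass the test, at 10.94, 9.68 and 10.08 log2 CPM in OKF6, 9.73, 9.73 and 9.51 in SCC15 and 10.31, 10.31 and 10.54 in SCC25. EIF1 was 0.73 log2 units lower in SCC15 than in SCC25 (SE 0.30, adjusted p = 0.0718), although no libraries of the cancer lines overlapped. The fit shared its spread with OKF6, where the SD of EIF1 was 0.64 log2 units, against 0.13 in each cancer line.

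EIF5 encodes the GTPase-activating partner of eIF2. EIF5 was at 7.73, 7.93 and 7.85 log2 CPM in OKF6, 6.74, 7.17 and 6.89 in SCC15 and 7.49, 7.62 and 7.81 in SCC25. All 3 SCC15 libraries were the lowest, and EIF5 fell by 0.91 log2 units against OKF6 (SE 0.18, adjusted p = 0.00145) and by 0.71 against SCC25 (SE 0.18, adjusted p = 0.0079). EIF1AX and EIF1AD passed in none of the line comparisons.

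Among the carriers of the initiator tRNA, the clearest difference lay in EIF2A, whose product can deliver a tRNA to the subunit without GTP and is distinct from the alpha subunit of eIF2. EIF2A stood at 6.37, 6.07 and 6.43 log2 CPM in OKF6, at 3.84, 3.95 and 4.06 in SCC15 and at 4.44, 4.59 and 3.81 in SCC25. Its 3 OKF6 libraries were all more than 1 log2 unit above any cancer library. The difference was -2.34 log2 units in SCC15 (SE 0.26, 5.06-fold lower, adjusted p = 2.24e-05) and -2.01 in SCC25 (SE 0.26, 4.02-fold lower, adjusted p = 0.000267). EIF2D, which encodes another protein that loads tRNA onto the subunit outside the eIF2 route, ran in the opposite direction. EIF2D measured 5.00, 4.60 and 5.40 in OKF6, 6.43, 6.52 and 6.58 in SCC15 and 6.08, 5.94 and 6.16 in SCC25. It was higher by 1.51 in SCC15 (SE 0.22, adjusted p = 0.000187) and by 1.06 in SCC25 (SE 0.22, adjusted p = 0.00472), with no overlap with OKF6.

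The subunits of eIF2 itself moved less. EIF2S1 encodes the alpha subunit, the target of the stress kinases, and stood at 6.52, 7.33 and 7.23 log2 CPM in OKF6, 6.14, 6.56 and 6.63 in SCC15 and 7.34, 7.62 and 7.41 in SCC25. EIF2S1 fell by 1.01 log2 units in SCC15 against SCC25 (SE 0.24, adjusted p = 0.00587), while neither line passed against OKF6. EIF2S3, the gamma subunit that holds GTP and the tRNA, was higher in SCC15 than in OKF6 by 0.59 (SE 0.20, adjusted p = 0.0289), in 2 of 6 fits with a library left out. EIF2S2, the beta subunit, passed in no line comparison.

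Of the 5 subunits of eIF2B, 3 were higher in SCC15 than in OKF6 and the same number in SCC25 than in OKF6, and none was lower. Over all genes 26.9% were higher in SCC15 and 18.9% in SCC25, and a group of 5 genes is too small to set against these shares. EIF2B2, EIF2B3 and EIF2B5 passed in both comparisons, which share the OKF6 libraries. EIF2B5 encodes the catalytic epsilon subunit, and its level was 5.13, 4.81 and 5.19 log2 CPM in OKF6, 5.44, 5.69 and 5.55 in SCC15 and 7.26, 7.22 and 6.98 in SCC25. SCC25 was more than 1 log2 unit above all libraries of the other lines. EIF2B5 was higher by 2.11 log2 units in SCC25 than in OKF6 (SE 0.19, 4.32-fold, adjusted p = 2.66e-05) and lower by 1.59 in SCC15 than in SCC25 (SE 0.19, adjusted p = 5.36e-05). The smaller difference of 0.52 between SCC15 and OKF6 (SE 0.19, adjusted p = 0.0403) passed in only 3 of 6 fits with a library left out.

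EIF2B2, the beta subunit, was at 5.26, 5.04 and 5.78 log2 CPM in OKF6, 6.27, 6.59 and 6.39 in SCC15 and 6.45, 6.33 and 6.51 in SCC25. Both cancer lines were above OKF6 without overlap, by 1.06 log2 units in SCC15 (SE 0.22, adjusted p = 0.00194) and 1.07 in SCC25 (SE 0.22, adjusted p = 0.00422). EIF2B3, the gamma subunit, was higher by 0.99 in SCC15 (SE 0.28, adjusted p = 0.0133) and by 0.82 in SCC25 (SE 0.28, adjusted p = 0.0479), and the latter held in 2 of 6 fits with a library left out. Summed over all 5 subunits the level was 198 ± 60.3 CPM in OKF6 (SD, n = 3), 268 ± 33.4 CPM in SCC15 and 370 ± 15.9 CPM in SCC25, with SCC25 above all libraries of the other lines and SCC15 overlapping OKF6. As a share of all counted reads, however, the cancer lines overlapped.

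**Figure D2:**
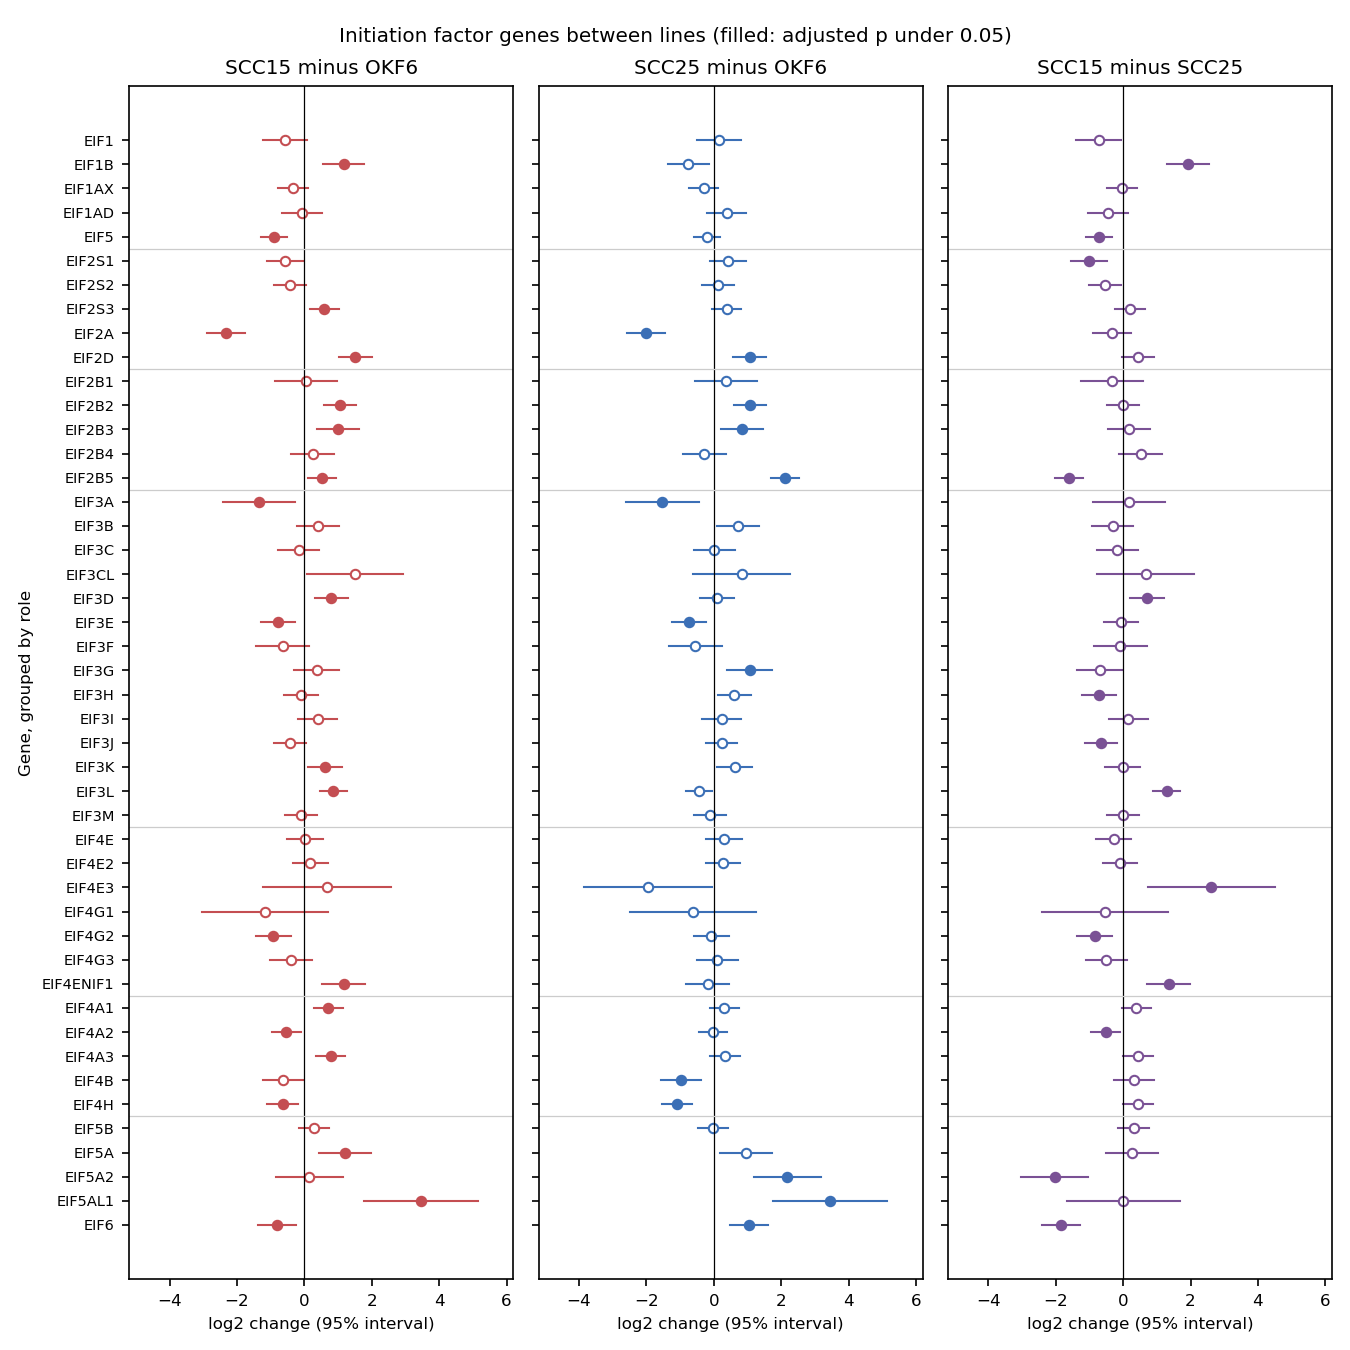
Log2 change of 46 factor genes (rows, grouped by role) in SCC15 minus OKF6, SCC25 minus OKF6 and SCC15 minus SCC25, with 95% limma intervals as bars and filled points where the adjusted p was under 0.05. EIF6 is filled on opposite sides of 0 in the comparisons with OKF6, and the widest bars belong to EIF4E3, EIF4G1, EIF5AL1 and EIF3CL.

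Of the 14 genes of eIF3, 5 passed in SCC15 against OKF6, 3 in SCC25 against OKF6 and 4 between the cancer lines, where 50.3%, 30.2% and 43.6% of all genes passed. EIF3L encodes a peripheral subunit and EIF3D one that contacts the mRNA cap. EIF3L stood at 7.94, 7.90 and 8.37 log2 CPM in OKF6, 9.03, 8.95 and 8.78 in SCC15 and 7.59, 7.65 and 7.66 in SCC25. SCC15 was highest in every library, 1.29 log2 units above SCC25 (SE 0.18, adjusted p = 0.000186) and 0.85 above OKF6 (SE 0.18, adjusted p = 0.00242). All of the last 500 bases of EIF3L are shared with another annotated transcript, so its reads are uncertain in origin. EIF3D was higher in SCC15 than in OKF6 by 0.80 (SE 0.23, adjusted p = 0.0125) and than in SCC25 by 0.71 (SE 0.23, adjusted p = 0.0258), the latter in only 1 of 6 fits with a library left out.

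EIF3A encodes the large scaffold subunit of eIF3 and was the member of the complex that varied most in OKF6. EIF3A read 5.85, 8.33 and 6.88 log2 CPM in OKF6, 5.37, 5.61 and 6.01 in SCC15 and 5.64, 5.35 and 5.49 in SCC25. It fell by 1.35 log2 units in SCC15 (SE 0.49, adjusted p = 0.0383) and by 1.53 in SCC25 (SE 0.49, adjusted p = 0.0363). In SCC15 the first OKF6 library lay below the third SCC15 library, so the groups overlapped. Each call passed in only 1 of 6 fits with a library left out, that without OKF6 replicate 1, where the differences were -1.94 and -2.11. EIF3E, a subunit that is also a known integration site gene in mouse mammary tumours, fell by 0.79 in SCC15 (SE 0.23, adjusted p = 0.0134) and by 0.74 in SCC25 (SE 0.23, adjusted p = 0.0317), the latter in 1 of 6 such fits.

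The remaining calls in eIF3 were smaller. EIF3K was higher in SCC15 than in OKF6 by 0.61 log2 units (SE 0.23, adjusted p = 0.0499) and EIF3G higher in SCC25 than in OKF6 by 1.06 (SE 0.30, adjusted p = 0.0234). EIF3H and EIF3J were lower in SCC15 than in SCC25 by 0.72 and 0.66 (adjusted p = 0.0245 and 0.0274). EIF3H passed in 0 of 6 fits with a library left out, EIF3K in 1, EIF3J in 2 and EIF3G in 3. However, EIF3H ran from 7.88 to 8.01 log2 CPM in SCC15 and from 8.57 to 8.80 in SCC25, without overlap. These fits took their spread from all lines, and the SD of EIF3H was 0.06 in SCC15, 0.12 in SCC25 and 0.46 in OKF6. With only the libraries of the cancer lines fitted, 21 factor genes passed between them instead of 14. EIF3B, EIF3C, EIF3CL, EIF3F, EIF3I and EIF3M passed in no line comparison. EIF3C and EIF3CL share all of their last 500 bases with each other, and EIF3CL had between 1 and 22 reads in a library, so the split of reads between them is uncertain. The summed level of the eIF3 genes was 2637 ± 205 CPM in SCC15 (SD, n = 3), 2220 ± 158 CPM in OKF6 and 2491 ± 102 CPM in SCC25. SCC15 lay above OKF6 without overlap, but overlapped SCC25.

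In the group around eIF4E and eIF4G, 2 of 7 genes passed in SCC15 against OKF6, 0 in SCC25 against OKF6 and 3 between the cancer lines. The shares of all genes that passed were again 50.3%, 30.2% and 43.6%. At an unadjusted p under 0.05, 1 gene, EIF4E3, passed in SCC25 against OKF6. EIF4E encodes the cap-binding protein and stood at 6.32, 5.42 and 5.84 log2 CPM in OKF6, 5.67, 6.07 and 5.90 in SCC15 and 6.11, 6.12 and 6.26 in SCC25. The lines overlapped, and the differences were 0.02 (SE 0.24) in SCC15 and 0.30 (SE 0.24) in SCC25 against OKF6 (adjusted p = 0.946 and 0.366). EIF4E2, a cap-binding relative linked to repression, also passed in none, with 0.18 and 0.27 against OKF6.

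EIF4G1, the main scaffold that joins eIF4E to eIF4A and eIF3, passed in no line comparison and varied widely in OKF6. EIF4G1 read 4.61, 8.82 and 8.34 log2 CPM in OKF6, 5.79, 6.01 and 6.47 in SCC15 and 6.76, 6.78 and 6.36 in SCC25. The SD of 2.30 among the OKF6 libraries was the highest of any factor gene, with replicate 1 below every cancer library and replicates 2 and 3 above them all. With all libraries the differences were -1.16 in SCC15 and -0.62 in SCC25 (SE 0.84, adjusted p = 0.277 and 0.609). Without OKF6 replicate 1 they were -2.48 and -1.94 (SE 0.24, adjusted p = 1.1e-05 and 0.000168). EIF4G3, its paralogue, stood at 4.72, 4.82 and 4.07 in OKF6, 3.87, 4.30 and 4.26 in SCC15 and 4.69, 4.44 and 4.79 in SCC25, and passed in no line comparison.

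EIF4G2 encodes a scaffold that lacks the site for eIF4E, and it stood at 10.68, 10.79 and 11.18 log2 CPM in OKF6, 9.73, 10.09 and 10.06 in SCC15 and 10.62, 10.84 and 10.95 in SCC25. The SCC15 libraries were the lowest, by 0.93 log2 units against OKF6 (SE 0.24, adjusted p = 0.00738) and by 0.85 against SCC25 (SE 0.24, adjusted p = 0.0141), the latter in 3 of 6 fits with a library left out. EIF4ENIF1, which carries eIF4E into the nucleus and into processing bodies, stood at 3.89, 3.33 and 3.78 in OKF6, 4.73, 4.69 and 5.08 in SCC15 and 3.22, 3.71 and 3.53 in SCC25. EIF4ENIF1 was highest in every SCC15 library, by 1.17 over OKF6 (SE 0.29, adjusted p = 0.00605) and 1.35 over SCC25 (SE 0.29, adjusted p = 0.0032).

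EIF4E3, which encodes another cap-binding relative of eIF4E, rested on few reads. It had 53, 22 and 4 reads in OKF6, 20, 33 and 49 in SCC15 and 6, 5 and 2 in SCC25. SCC15 was above SCC25 in every library, by 2.62 log2 units (SE 0.86, adjusted p = 0.0292), but the call passed in 0 of 6 fits with a library left out, where the adjusted p reached 0.104. The 7 genes of this group summed to 2349 ± 479 CPM in OKF6 (SD, n = 3), 1260 ± 167 CPM in SCC15 and 2090 ± 199 CPM in SCC25, and the SCC15 libraries were the lowest.

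**Figure D3:**
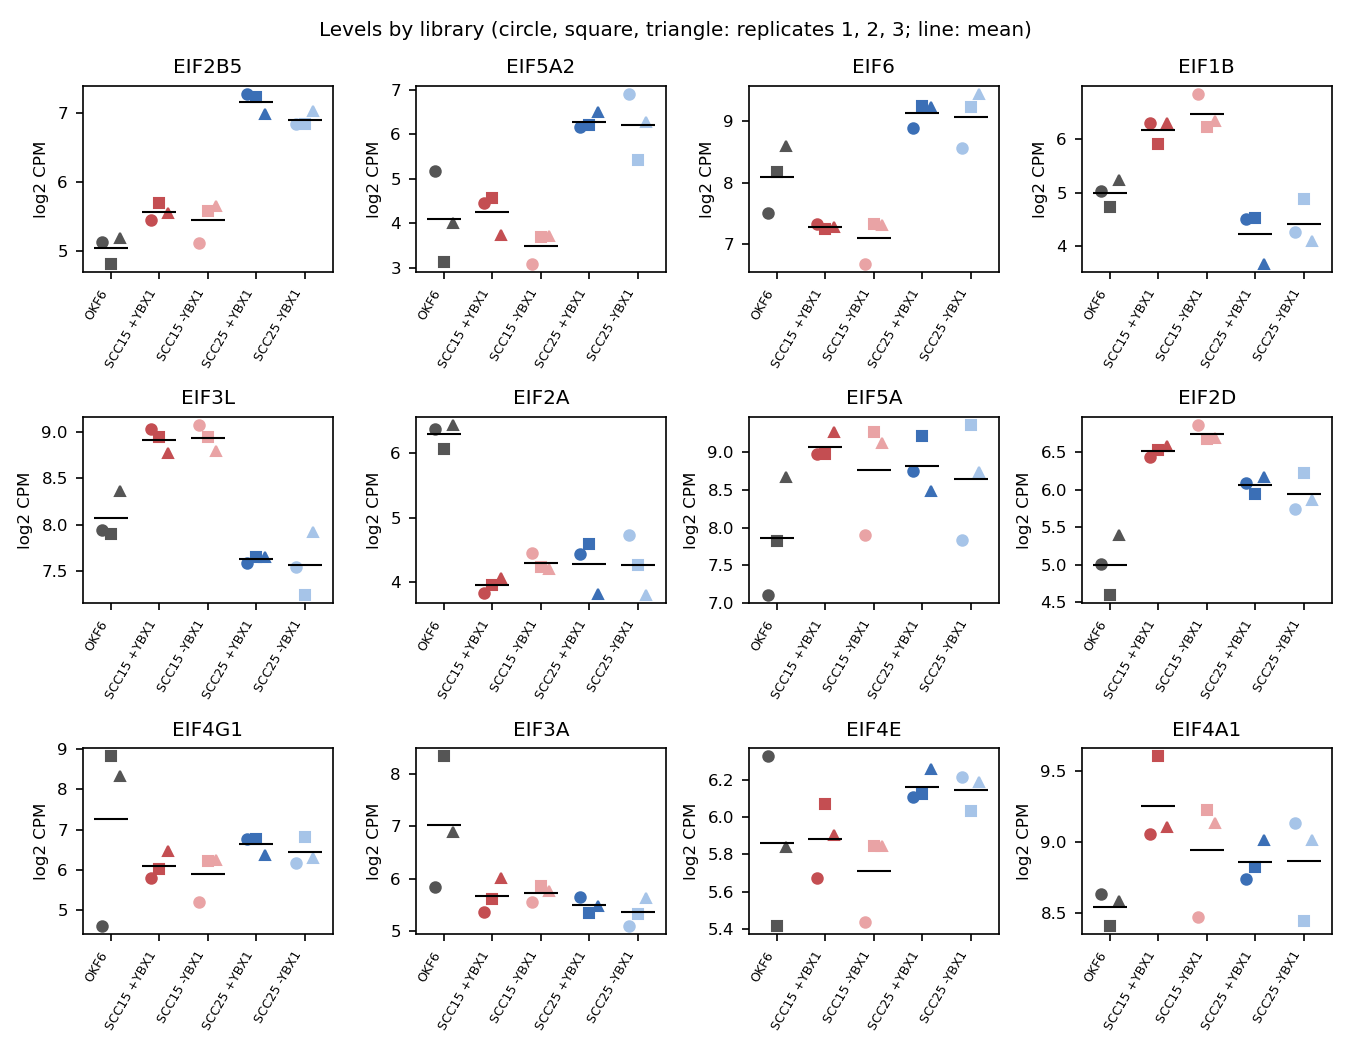
Log2 CPM of 12 factor genes in each library of the 5 groups, with a circle, square and triangle for replicates 1, 2 and 3 and a line at the group mean. EIF2B5 and EIF5A2 are highest in SCC25 with or without YBX1, EIF1B and EIF3L in SCC15, and EIF4G1 in OKF6 runs from 4.61 to 8.82.

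Of the 5 genes of eIF4A and its cofactors, 4 passed in SCC15 against OKF6, 2 in SCC25 against OKF6 and 1 between the cancer lines, beside 50.3%, 30.2% and 43.6% of all genes. EIF4A1 encodes the helicase that unwinds the leader of the mRNA, and it stood at 8.63, 8.41 and 8.58 log2 CPM in OKF6, 9.06, 9.60 and 9.11 in SCC15 and 8.74, 8.83 and 9.01 in SCC25. The cancer libraries were all above OKF6, by 0.71 log2 units in SCC15 (SE 0.20, adjusted p = 0.0123) and by 0.32 in SCC25 (SE 0.20, adjusted p = 0.26). The end of EIF4A1 is shared with a readthrough transcript from SENP3. EIF4A2, the second helicase gene, went the other way, at 6.72, 6.71 and 6.83 in OKF6, 6.47, 5.96 and 6.21 in SCC15 and 6.53, 6.69 and 6.97 in SCC25. EIF4A2 fell by 0.54 in SCC15 against OKF6 (SE 0.19, adjusted p = 0.0367) and by 0.52 against SCC25 (SE 0.19, adjusted p = 0.0498), in 3 and in 1 of 6 fits with a library left out.

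EIF4A3, a relative that sits in the exon junction complex, was higher in SCC15 than in OKF6 by 0.78 log2 units (SE 0.20, adjusted p = 0.00698). EIF4B and EIF4H encode RNA-binding cofactors that stimulate the helicase. EIF4B stood at 6.90, 6.23 and 6.95 in OKF6, 6.55, 5.69 and 5.92 in SCC15 and 5.58, 5.75 and 5.85 in SCC25, and fell by 0.97 in SCC25 against OKF6 (SE 0.27, adjusted p = 0.0198), in 3 of 6 fits with a library left out. Its difference of -0.64 in SCC15 did not pass (SE 0.27, adjusted p = 0.068), and the OKF6 and SCC15 libraries overlapped. EIF4H stood at 6.00, 5.86 and 5.64 in OKF6, 5.15, 5.27 and 5.12 in SCC15 and 4.88, 4.52 and 4.85 in SCC25. OKF6 was above every cancer library, and EIF4H fell by 0.65 in SCC15 (SE 0.20, adjusted p = 0.0207) and by 1.08 in SCC25 (SE 0.20, adjusted p = 0.00276).

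In the last group, EIF6 was the only factor gene that differed from OKF6 in opposite directions. EIF6 encodes a protein that keeps the large ribosomal subunit from joining too early and that is also needed to make that subunit. EIF6 stood at 7.50, 8.17 and 8.60 log2 CPM in OKF6, 7.32, 7.24 and 7.28 in SCC15 and 8.89, 9.25 and 9.24 in SCC25. OKF6 lay between the cancer lines without touching either, and EIF6 was 1.84 log2 units lower in SCC15 than in SCC25 (SE 0.26, 3.59-fold, adjusted p = 0.000174). Against OKF6 it was 1.04 higher in SCC25 (SE 0.26, adjusted p = 0.0114) and 0.81 lower in SCC15 (SE 0.26, adjusted p = 0.0225). The latter passed in only 1 of 6 fits with a library left out, with an adjusted p of up to 0.0813. Some of the 3′ end of EIF6, 32.6% of the 75-base pieces searched, is shared with another transcript.

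EIF5A and EIF5A2 encode the factor that helps ribosomes through difficult stretches and carries the amino acid hypusine. EIF5A2 is the more tissue-restricted copy. EIF5A2 stood at 36.3, 8.68 and 16.1 CPM in OKF6, 21.9, 23.5 and 13.3 CPM in SCC15 and 71.5, 73.4 and 89.7 CPM in SCC25. The SCC25 libraries were the highest, by 2.18 log2 units over OKF6 (SE 0.45, 4.53-fold, adjusted p = 0.00463), and SCC15 was 2.03 below SCC25 (SE 0.45, adjusted p = 0.00387). EIF5A stood at 7.11, 7.82 and 8.67 log2 CPM in OKF6, 8.97, 8.98 and 9.27 in SCC15 and 8.75, 9.22 and 8.49 in SCC25. It was higher in SCC15 than in OKF6 by 1.21 (SE 0.35, adjusted p = 0.014), and the 0.95 in SCC25 did not pass (SE 0.35, adjusted p = 0.0617). OKF6 replicate 1 was again the lowest EIF5A library.

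EIF5AL1, an intronless copy of EIF5A, had 21, 1 and 4 reads in OKF6, 45, 88 and 72 in SCC15 and 64, 58 and 46 in SCC25. It was higher by 3.45 log2 units in SCC15 (SE 0.76, adjusted p = 0.0032) and by 3.44 in SCC25 (SE 0.76, adjusted p = 0.00684). Of the 75-base pieces from the end of EIF5A, 11.6% match EIF5AL1, and reads of this pair could be split between them. EIF5B, the GTPase that joins the subunits, passed in no line comparison, at 8.74, 9.19 and 9.13 log2 CPM in OKF6, 9.49, 9.41 and 9.02 in SCC15 and 9.05, 9.04 and 8.88 in SCC25. EIF3J-DT, the noncoding member, differed from OKF6 by 0.57 log2 units in SCC15 and 0.41 in SCC25 without passing (adjusted p = 0.271 and 0.486).

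All told, 18 of the 48 genes passed in no line comparison, among them EIF4E, EIF4G1, EIF1, EIF5B and EIF2B1. Of the rest, 5 were lower in both cancer lines than in OKF6, namely EIF2A, EIF3A, EIF3E, EIF4H and EIF1AY, and 5 were higher in both, namely EIF2B2, EIF2B3, EIF2B5, EIF2D and EIF5AL1. EIF1B, EIF3D, EIF3L and EIF4ENIF1 were higher in SCC15 than in either other line, and EIF4A2, EIF4G2, EIF5 and EIF6 were lower. Without EIF1AY, 11 of 22 calls in SCC15 against OKF6, 7 of 13 in SCC25 against OKF6 and 8 of 14 between the cancer lines passed in every fit with a library left out.

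As a whole the factor genes summed to 9632 ± 609 CPM in OKF6 (SD, n = 3), 8927 ± 580 CPM in SCC15 +YBX1 and 10532 ± 367 CPM in SCC25 +YBX1, with no overlap between the cancer lines. The order depended on the scaling. As a share of all counted reads, without the normalisation of library sizes, the factor genes took 0.954% ± 0.0526 in OKF6, 1.01% ± 0.0332 in SCC15 and 0.933% ± 0.0516 in SCC25, so that SCC15 went from the lowest mean to the highest. The eIF3 genes took 0.297% ± 0.0165 of reads in SCC15 and 0.221% ± 0.00802 in SCC25, without the overlap seen in summed CPM. The eIF2B genes took 0.0301% ± 0.00323 in SCC15 and 0.0193% ± 0.00449 in OKF6, again without overlap. In SCC25 the eIF2B genes took 0.0327% ± 0.00138, which overlapped SCC15, unlike in summed CPM. The eIF4A group was higher in SCC15 +YBX1 than in the other lines on both scales without overlap, at 955 to 1203 CPM against 711 to 861 CPM in OKF6 and 803 to 891 CPM in SCC25 +YBX1. With 3 libraries in each group an exact permutation test cannot go below p = 0.1, so these sums are given without a test.

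The kinases, binding proteins and later factors around initiation were followed with a list of 45 genes. Of these, 6 were higher and 10 lower in SCC15 than in OKF6, 6 higher and 7 lower in SCC25 than in OKF6, and 7 higher and 5 lower in SCC15 than in SCC25. The shares called were 35.6%, 28.9% and 26.7%, near or below the 50.3%, 30.2% and 43.6% of all genes. EEF1A2, the elongation factor isoform of nerve and muscle, was higher by 7.83 log2 units in SCC15 and by 5.01 in SCC25 (adjusted p = 1.34e-06 and 0.000134). EEF1A1, its common counterpart, fell by 2.60 and 2.84. However, EEF1A1 averaged only 6.43 log2 CPM in OKF6 (SD 1.02), 3.84 in SCC15 and 3.60 in SCC25. EEF2, another elongation factor, averaged 10.65, 11.01 and 10.06. Shared ends were sought only for the factor genes, so how fully reads of EEF1A1 were counted was not tested. MKNK2, a kinase of eIF4E, fell by 2.11 in SCC15 and by 1.60 in SCC25 (adjusted p = 1.42e-05 and 0.000404). BZW1, an eIF5 mimic that tightens start codon selection, fell by 1.77 and 1.59 (adjusted p = 0.00112 and 0.00509). EIF4EBP1, the repressor of eIF4E that mTOR releases, was higher in SCC25 than in OKF6 by 1.79 (SE 0.39, adjusted p = 0.00647), and PDCD4, an inhibitor of eIF4A, fell there by 1.01 (adjusted p = 0.0074). EIF2AK2, the kinase PKR, fell by 1.50 in SCC15 against SCC25 (SE 0.35, adjusted p = 0.00545).

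The second question was whether the factor genes change when YBX1 is removed. YBX1 itself stood at 6.74, 6.31 and 6.62 log2 CPM in SCC25 +YBX1 and at 5.26, 4.70 and 3.65 in SCC25 -YBX1. In SCC15 it went from 5.11, 5.56 and 6.00 to 3.36, 3.71 and 3.13. No libraries overlapped, and the difference in YBX1 was -2.01 log2 units in SCC25 (SE 0.35) and -2.15 in SCC15 (SE 0.35). Neither difference passed once adjusted over all genes (limma, adjusted p = 0.29 and 0.326), with an unadjusted p of 4.97e-05 and 2.51e-05. The targeted gene was thus lower in every library labelled knockout, and no gene of the tables passed the adjusted threshold.

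None of the 48 factor genes passed in either knockout (limma, adjusted p under 0.05), and the share of all genes that passed was 0% in both. At an unadjusted p under 0.05, 1 factor gene passed in each, against 3.09% of all genes in SCC25 and 2.32% in SCC15. The voom fit on recovered reads also passed 0. Replicates did not overlap for 3 factor genes in SCC25 and 4 in SCC15, where 7.31% and 7.04% of all genes did not. Pairs were taken by label number, which was not the closest match for every library. Within them, 11 factor genes moved in 1 direction in every pair in SCC25 (22.9%, against 22.5% of all genes) and 14 in SCC15 (29.2%, against 28.2%). A fit with the replicate number as a block also passed 0 in both lines (adjusted p of 1 when rounded for every factor gene given by value). That block was shared by both lines, so it did not model the pairs of each line separately. The differences were under 0.5 log2 units for 46 of 47 genes in each line, and the 95% interval stayed within a 2-fold change either way for 43 of 47 in each line. At the median the interval reached 0.46 log2 units to either side.

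**Figure D4:**
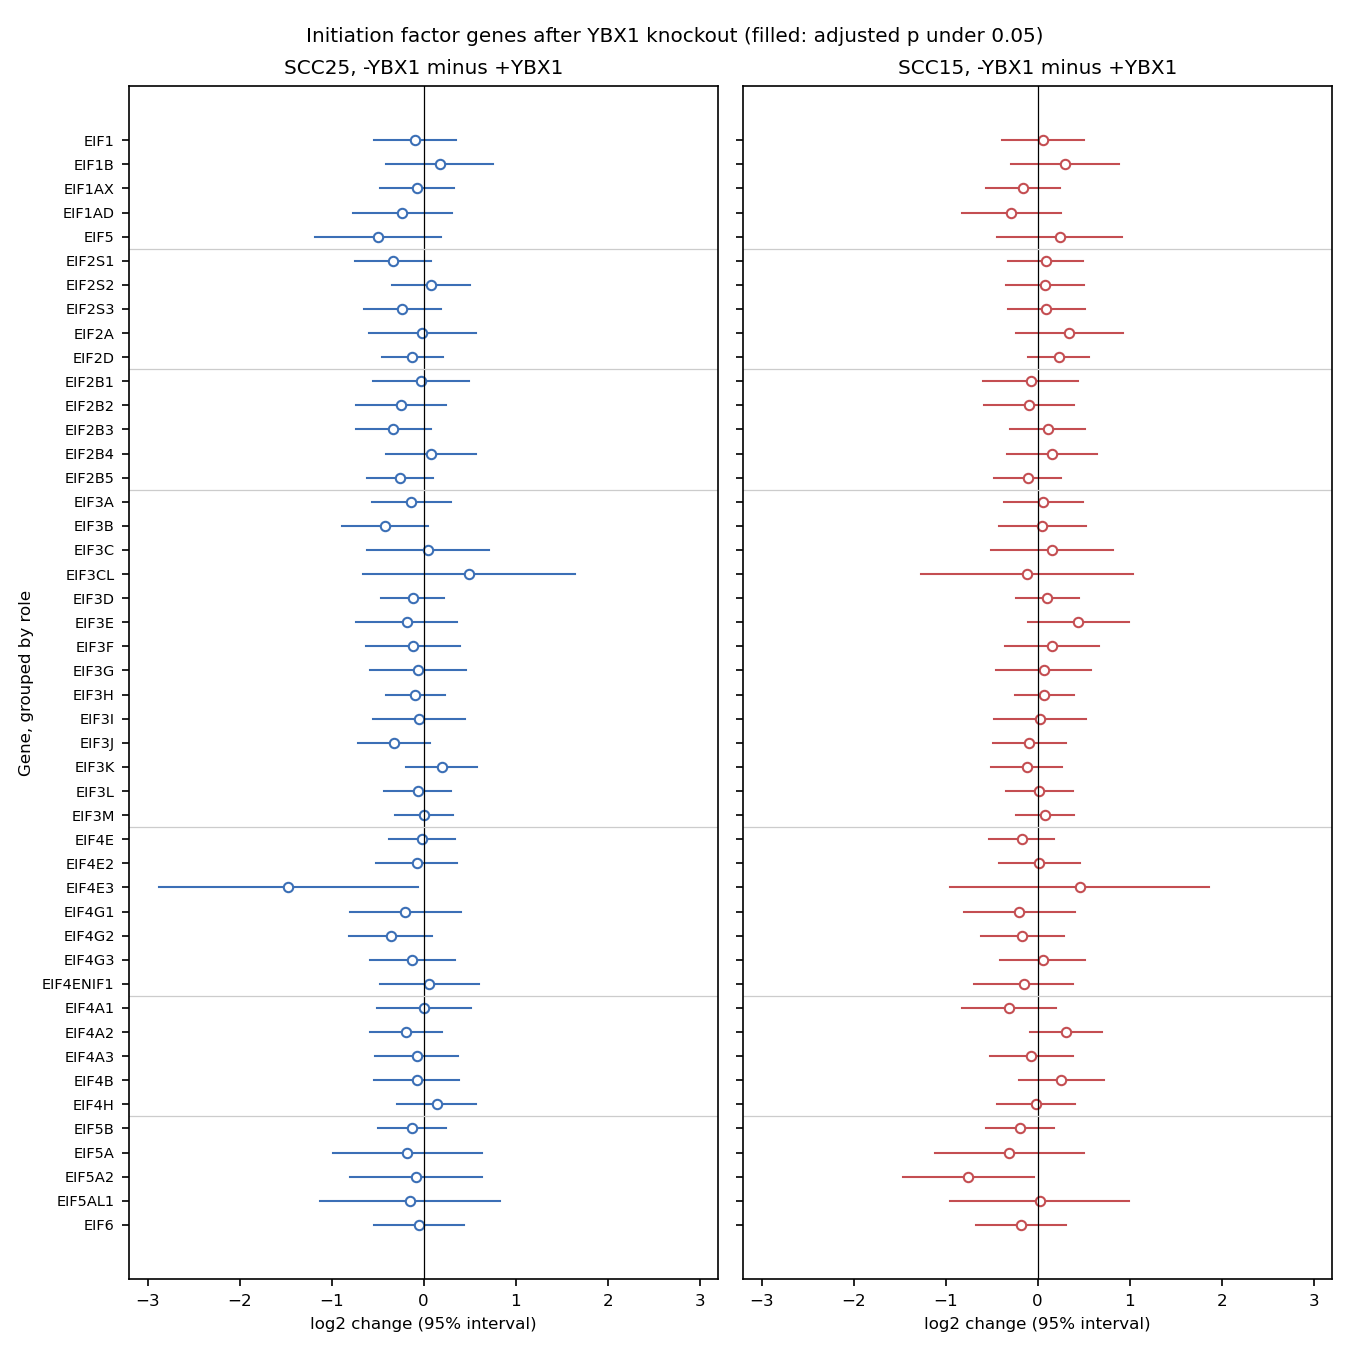
Log2 change of 46 factor genes (rows, grouped by role) between -YBX1 and +YBX1 libraries in SCC25 and SCC15, with 95% limma intervals as bars. No point is filled, since no adjusted p was under 0.05, and EIF4E3 in SCC25 and EIF5A2 in SCC15 have the only intervals that leave out 0.

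More factor genes were below than above 0 in the SCC25 knockout, 38 against 10, where 6944 of all genes were below and 6051 above. Their median was -0.09 log2 units, beside -0.02 for all genes. In SCC15 20 were below and 28 above, with a median of 0.04 beside -0.01, where 6662 of all genes were below and 6333 above. By replicate number, the SCC25 medians were -0.03, -0.23 and -0.05, with 26, 35 and 28 genes lower in -YBX1, so pair 2 was the most negative. In that pair the -YBX1 library had a mean correlation of 0.933 with its group, the lowest of the knockout libraries, and 16.2% of its reads lay on 10 genes. The SCC15 medians by number were 0.00, -0.00 and 0.05. The difference between the knockout effects of the lines passed for 0 of 48 genes (limma, adjusted p under 0.05), and for 0 at an unadjusted p under 0.05, against 2.26% of all genes.

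In SCC25 the smallest unadjusted p belonged to EIF4E3, with 6, 5 and 2 reads in +YBX1 and 2, 3 and 0 in -YBX1, all at or near the floor of 3 reads. The fitted difference of -1.47 log2 units (SE 0.66, unadjusted p = 0.0424) depends on the reads added before the log. EIF3B, an eIF3 core subunit, went from 8.35, 8.31 and 8.02 log2 CPM to 7.74, 7.78 and 7.90 without overlap (-0.42, SE 0.22, unadjusted p = 0.075). EIF2B3 went from 4.86, 5.02 and 4.87 to 4.48, 4.46 and 4.82, also without overlap (-0.33, SE 0.19, unadjusted p = 0.103). EIF3J, a loosely bound eIF3 subunit, went from 6.96, 7.09 and 7.31 to 6.94, 6.50 and 6.96 (-0.32, SE 0.18, unadjusted p = 0.104). All 4 were lower in -YBX1 in each of the 3 pairs. They were picked by their p in these same libraries, so the pairs are no separate support. With the replicate number as a block shared by both lines, the unadjusted p was 0.0348 for EIF4E3, 0.0545 for EIF3B, 0.086 for EIF2B3 and 0.0937 for EIF3J. The adjusted p of all 4 was 1 when rounded in both fits.

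In SCC15 the smallest unadjusted p belonged to EIF5A2, which went from 21.9, 23.5 and 13.3 CPM to 8.5, 13.0 and 13.1 CPM without overlap (-0.75 log2 units, SE 0.33, unadjusted p = 0.0402). In SCC25 EIF5A2 read 71.5, 73.4 and 89.7 CPM with and 119, 42.9 and 77.8 CPM without YBX1, a difference of -0.08 (SE 0.33). The test of the difference between the lines gave -0.67 for EIF5A2 (SE 0.47, unadjusted p = 0.176). EIF3E went from 5.07, 5.34 and 5.71 log2 CPM to 6.13, 5.55 and 5.76 in SCC15 (0.44, SE 0.26, unadjusted p = 0.107). EIF4A2 went from 6.47, 5.96 and 6.21 to 6.74, 6.34 and 6.48 (0.31, SE 0.18, unadjusted p = 0.112) and EIF2D from 6.43, 6.52 and 6.58 to 6.85, 6.67 and 6.69 (0.23, SE 0.15, unadjusted p = 0.157). These 3 genes were higher in -YBX1 in every pair, EIF4A2 by 0.28, 0.38 and 0.27 log2 units, EIF3E by 1.06, 0.21 and 0.05 and EIF2D by 0.43, 0.15 and 0.12, although the groups as a whole overlapped for EIF3E and EIF4A2. EIF5A2 differed by -1.37, -0.86 and -0.03 in the pairs. These genes too were picked by their p in the same libraries, so the pairs are no separate support. With the replicate number as a block shared by both lines, the unadjusted p was 0.0521 for EIF5A2, 0.109 for EIF3E, 0.125 for EIF4A2 and 0.177 for EIF2D. EIF5A2 thus no longer passed an unadjusted 0.05. EIF2A and EIF3M were the other two genes without overlap, with differences of 0.34 and 0.08.

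The same was asked of the factors most often studied in translational control. EIF4E stood at 6.21, 6.04 and 6.19 log2 CPM in SCC25 -YBX1 and at 5.44, 5.85 and 5.85 in SCC15 -YBX1, a difference from +YBX1 of -0.02 (95% interval -0.37 to 0.34) and -0.17 (95% interval -0.53 to 0.18). EIF4G1 read 6.17, 6.82 and 6.31 in SCC25 -YBX1 and 5.20, 6.23 and 6.24 in SCC15 -YBX1, differences of -0.20 in each line (SE 0.28). EIF4A1 read 9.14, 8.44 and 9.02 in SCC25 -YBX1 and 8.47, 9.23 and 9.13 in SCC15 -YBX1, differences of 0.01 and -0.31 (SE 0.24). In all of these the -YBX1 libraries overlapped the +YBX1 libraries of the same line. EIF4B differed by -0.08 and 0.25, EIF2S1 by -0.33 and 0.09, EIF3A by -0.14 and 0.06, EIF5A by -0.18 and -0.31 and EIF6 by -0.05 and -0.18 in SCC25 and SCC15, with unadjusted p of 0.104 or more. Of these, EIF2S1 in SCC25, from 7.34, 7.62 and 7.41 to 7.29, 7.05 and 7.04, was the one without overlap.

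The knockout differences were also set beside the promoter motifs. The 19 factor genes with CCAAT had a median difference of -0.12 log2 units in the SCC25 knockout and the 20 without it one of -0.08. In SCC15 the medians were 0.06 with and 0.00 without CCAAT. For CACGTG, the 10 genes with it had medians of -0.08 in SCC25 and -0.04 in SCC15 and the 29 without it -0.12 and 0.02. Of the partners, 0 of 45 passed the threshold in either knockout (limma). At an unadjusted p under 0.05, 1 did in each, against 3.09% of all genes in SCC25 and 2.32% in SCC15.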

How the data were processed

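QuantSeq 3′ FWD libraries were made from total RNA of 15 samples. The authors used Cutadapt for trimming, HISAT2 for alignment to hg38, featureCounts for counting and limma for filtering and normalisation. They deposited log2 CPM in a table of the lines (9 libraries) and a table of YBX1 (12 libraries, 6 of them also in the other). Versions were not given in the sources used here. The values came back as whole reads for 100% of entries (tolerance 0.01), with 0.5 added.

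Those deposited log2 values were fitted with limma 3.58.1 under R 4.3.3 (variance trend, two-sided, all groups of a table together), without the replicate number as a term. P-values were adjusted by Benjamini-Hochberg over 12995 genes at a threshold of 0.05. Code was tested on simulated data. Libraries with the same label number with and without YBX1 had positively correlated deviations (0.135 to 0.47 in SCC25 and 0.117 to 0.498 in SCC15). The same number was not always the closest match. SCC25 -YBX1 replicate 1 correlated more with +YBX1 replicate 3 (0.239) than with replicate 1 (0.135). SCC15 -YBX1 replicate 3 correlated more with +YBX1 replicate 2 (0.345) than with replicate 3 (0.117).

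The members and lists were chosen with earlier results of these data known. Values per library are given for EIF4E, EIF4G1, EIF4A1, EIF4B, EIF2S1, EIF3A, EIF5A, EIF6 and YBX1, for the 4 largest called changes each way in the lines, for the 4 smallest unadjusted p in a knockout and for paralogues of these. Partners are named where called, at most 4 each way, and the remaining members by role. Shared ends were sought with 75-base pieces, every 5 bases of the last 500, of GENCODE 44 transcripts. Besides leaving out each library, the fits were repeated with a replicate block, with just the groups under comparison, with medians or quantiles equalised, without the variance trend, with 2 reads added, with voom weights and for genes above the first quartile. Plots were made in matplotlib 3.10.9 (Python 3.11.15).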

Additional observations from a re-analysis of the deposited data

How the results depend on the processing

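With 1 library left out, SCC15 against OKF6 gave 15 to 27 genes instead of 23, with 15 without SCC15 replicate 2 or 3. SCC25 against OKF6 gave 8 to 22 instead of 14, with 22 without OKF6 replicate 1, 9 without SCC25 replicate 1 and 8 without SCC25 replicate 2. SCC15 against SCC25 gave 8 to 11 instead of 14, with 9 without SCC15 replicate 3 and 8 without SCC25 replicate 2 or 3. The knockouts and their difference stayed at 0 in every such fit. Other settings gave 17 to 23, 10 to 14 and 10 to 21 genes, the last with only the 6 libraries compared, and 0 in the knockouts. The causes were not tested.

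With the replicate number as a block, the comparisons of lines gave 21, 13 and 13 genes and both knockouts 0. Same-numbered libraries of different lines did not deviate together (mean correlations of 0.0922, -0.0114 and -0.0754), so the numbers could pair only the libraries with and without YBX1. In the knockout fits the block was shared by both lines and did not model those pairs line by line. It changed no knockout call at the adjusted threshold.

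No called gene reversed. Of 66 results on single genes, 11 uncalled ones changed sign under some alternative. EIF4A1 in the SCC25 knockout was -0.00116 with library medians set equal. With a library left out, the log2 changes in SCC25 ran from -0.129 to 0.218 for EIF4A1, -0.0515 to 0.0375 for EIF4E, -0.532 to 0.225 for EIF5A and -0.233 to 0.207 for EIF6. In the SCC15 knockout they ran from -0.0643 to 0.284 for EIF2S1, -0.0869 to 0.23 for EIF3A, -0.377 to 0.144 for EIF4G1, -0.559 to 0.119 for EIF5A and -0.293 to 0.0312 for EIF6. EIF4E in SCC15 against OKF6 ran from -0.199 to 0.254, and EIF4G1 in SCC25 against OKF6 from -1.94 to 0.159. Genes with few reads, such as EIF4E3, EIF3CL and EIF5AL1, are limited by depth.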

Other observations

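EIF5A2, EIF2B5, EIF4G1 and EIF4A2 lie on the long arm of chromosome 3 (hg38), EIF5A2 at chr3:170888418-170908644, EIF2B5 at chr3:184135038-184146127, EIF4G1 at chr3:184314495-184335358 and EIF4A2 at chr3:186783205-186789897. This was noticed after the values had been seen. The stretch from the start of EIF5A2 to the end of EIF4A2 held 60 genes of the tables, with these factor genes counted among them. Its ends were set by them, so the counts are not independent of the values first seen, and they were not tested. Of the 60, 23 were higher in SCC25 than in OKF6 (38.3%) and 1 was lower (1.67%), with a median of 0.71 log2 units. Over all genes 18.9% were higher and 11.3% lower, with a median of 0.13. In SCC15 against SCC25, 1 was higher (1.67%) and 36 were lower (60%), with a median of -1.07. Over all genes 20% were higher and 23.6% lower, with a median of -0.01. In SCC15 against OKF6, 10 were higher (16.7%) and 19 lower (31.7%), with a median of -0.55. Over all genes 26.9% were higher and 23.4% lower, with a median of 0.10. EIF5A2 and EIF2B5 were among the genes higher in SCC25 than in OKF6, while EIF4A2 and EIF4G1 differed by -0.02 and -0.62 there without passing the test. EIF2A, also on the long arm but outside the stretch at chr3:150546678-150586016, was lower than OKF6 in both cancer lines. EIF1B and EIF4E3, elsewhere on chromosome 3, did not pass in SCC25 against OKF6 and were higher in SCC15 than in SCC25.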
